A study of Mus musculus with 4 samples.

Results

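Notch signalling was described through 10 genes: the receptors Notch1, Notch2 and Notch4, the ligands Dll4, Jag1 and Jag2, and the target genes Hey1, Hey2, Heyl and Nrarp. They were chosen by name, as receptors, ligands and targets of the pathway in endothelium, and all 10 were found among the 23337 gene symbols of the count tables. RNA was measured in mouse lymphatic endothelial cells of embryonic day 14.5 that were wild type or carried a deletion on both chromosomes. The labels do not locate the deletion. The series title speaks of an enhancer to which the factor GATA2 binds, and in the published study that enhancer belongs to Prox1, the homeobox gene that specifies lymphatic endothelium. For each genotype the dorso-anterior parts of a whole litter were pooled, so a library stands for 1 pool of embryos. Cells that carried LYVE1, a hyaluronan receptor of lymphatic vessels, and the endothelial cadherin VECAD, and that lacked the leukocyte marker CD45, were sorted and in part lysed at once. The remainder of each sort was kept for 7 days on OP9 cells, a mouse bone marrow stromal line, with the cytokines FLT3L, IL3 and SCF at 100 ng/ml each, and LYVE1+ VECAD+ cells were then sorted again, with no CD45 gate given for that sort. The series gives the test of blood-forming potential as the purpose of the culture. Each of the 4 groups is therefore 1 library, and no difference below could be set against a spread between replicates.

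Notch receptors are single-pass membrane proteins that are activated by Delta-like and Jagged ligands on neighbouring cells. Ligand binding leads to cleavage of the receptor, and the freed intracellular part enters the nucleus, where it joins the DNA-binding protein RBPJ and Mastermind proteins and turns on target genes, among them the repressors of the HES and HEY families and the feedback inhibitor Nrarp. In endothelium the pathway is known for arterial fate and for the restraint of vessel sprouting, and in the embryo for the formation of blood stem cells from arterial endothelium.

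Gene counts per library ran from 1694669 to 7943587. Levels below are counts per 1000000 (CPM), scaled by the trimmed mean of M values (TMM), and values in parentheses are 95% intervals that cover counting error only. Counts also lay in olfactory and vomeronasal receptor genes, which these cells are not known to use: before culture their coding sequence held 6.64 counts per kb in wild type and 8.35 in mutant, and 0.535 and 1.62 after it. Members with few counts are read against this background. Summed over 12 pan-endothelial genes, the scaled level was 4303 and 4598 CPM before culture and 13364 and 12194 CPM after it, while 8 stromal genes went from 3250 and 5199 CPM to 1127 and 929 CPM. Prox1 stood at 507 and 487 CPM before culture and at 207 and 137 CPM after it. In such bulk libraries, fewer cells of a type and less RNA per cell cannot be told apart.

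Culture was the axis along which the Notch genes differed. A gene was called where the whole interval of its fold lay beyond 2-fold and at least 1 of the 2 libraries held at least 20 counts. In wild type cells Notch1, Notch4, Dll4 and Nrarp were called higher after culture and Hey1 lower, which is 5 of 10 members, beside 13.9% of the 17154 genes tested (8.17% higher and 5.77% lower). In mutant cells Notch4, Dll4 and Nrarp were called higher and Notch2 and Hey1 lower, again 5 of 10, beside 8.81% of 18807 genes (5.19% higher and 3.62% lower). Notch4, Dll4, Nrarp and Hey1 were called in the same direction in both genotypes. The sign of the culture difference matched between genotypes for 10 of 10 members, and for 86.4% of the 17012 genes tested in both, and with background subtracted it matched for 9, all but Jag1. By the looser measure of an interval that excludes 1, 5 members lay above and 5 below in wild type, beside 33.9% and 27.3% of all genes, and 4 above and 5 below in mutant, beside 32.4% and 27%. All 10 members reached the count minimum for these comparisons, but Hey2, Heyl and Jag2 in wild type and Hey2 in mutant did so only through the library before culture, where they were higher.

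The size of every culture fold depends on the scaling. When the libraries were scaled to the summed pan-endothelial genes in place of TMM, all culture log2 folds were lower by 1.64 in wild type and by 1.41 in mutant. On that scale 0 members were called higher and 5 lower in wild type, and 1 was called higher (Notch4) and 6 lower in mutant. Over all genes, 0.787% were called higher and 51.1% lower in wild type on that scale, and 0.851% and 47.9% in mutant, so a lower call is common there. TMM values therefore describe a gene against the bulk of all genes, and pan-endothelial values describe it against 12 other endothelial genes. Those 12 genes did not move alike. Eng went from 233 and 253 CPM before culture to 3346 and 2800 CPM after it, wild type first, and Kdr from 1270 and 1307 to 2162 and 2084 CPM. Cldn5 went from 167 and 193 to 125 and 112 CPM. Whether a fold that turns on this scale rests on Eng alone was not tested. Ratios between members within a library, also given below, do not depend on scaling.

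**Figure D1:**
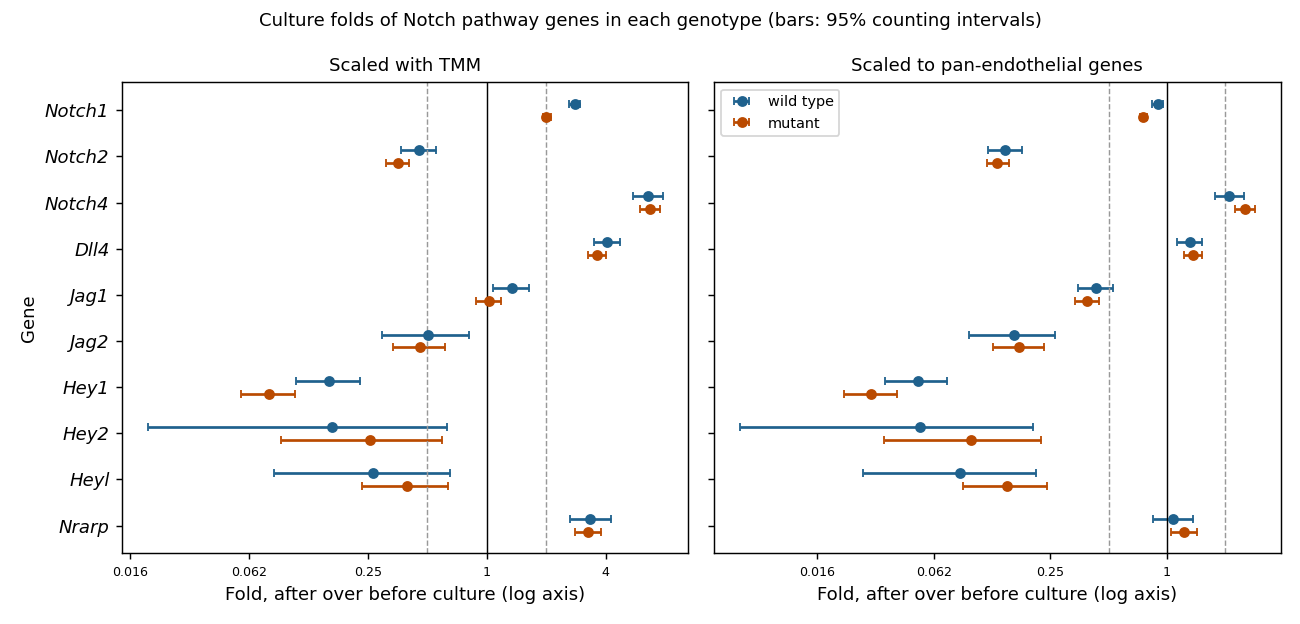
Fold of each Notch gene, after over before culture, on a log axis, in wild type (blue) and mutant (orange) cells, with TMM scaling on the left and pan-endothelial scaling on the right. Bars are 95% counting intervals and dashed lines mark 2-fold; Notch4, Dll4 and Nrarp lie right of 1 in both panels, Hey1 lies far to the left in both, and Notch1 lies right of 1 on the left panel and left of it on the right panel.

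Among the receptors, Notch1 and Notch4 were higher after culture on the TMM scale and Notch2 was lower. Notch1 is the main Notch receptor of developing vessels. It lies on the minus strand of chromosome 2 (GRCm38, 26457903 to 26516663). The gene held 2128 counts in wild type and 4703 in mutant before culture, and 1632 and 3422 after it, or 427, 510, 1187 and 1023 CPM in that order. Both libraries after culture were above both libraries before it. The culture fold was 2.78 (2.60 to 2.97) in wild type, which was called, and 2.0 (1.92 to 2.10) in mutant, which was not, and against the pan-endothelial genes the direction turned, to 0.895 (0.839 to 0.955) and 0.756.

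Notch4, a receptor found mostly in endothelium, lies on the plus strand of chromosome 17 (34564268 to 34588503). Its counts were 216 and 408 before culture and 389 and 991 after it, wild type first, and the levels were 43.3, 44.3, 283 and 296 CPM. The 2 libraries of each culture state were nearly level and the 2 states far apart. Notch4 rose 6.53-fold (5.51 to 7.75) in wild type and 6.69-fold (5.96 to 7.53) in mutant, and on the pan-endothelial scale it was 2.10-fold (1.78 to 2.49) and 2.52-fold (2.25 to 2.84) higher. These were the highest culture folds of the 10 members in each genotype on both scales.

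Notch2, a receptor that is also used in mural and blood cells, lies on the plus strand of chromosome 3 (98013527 to 98150361). It held 896 and 2024 counts before culture and 112 and 260 after it, or 180, 220, 81.5 and 77.7 CPM. Both libraries after culture were below both libraries before it. In mutant cells Notch2 fell 2.83-fold (2.48 to 3.23). In wild type it was 2.21-fold lower (1.81 to 2.71), which was not called, although it was with background subtracted (0.351, 0.286 to 0.432). Against the pan-endothelial genes it was called lower in both, at 0.146 and 0.133. Notch3, which is known mainly from mural cells and is no member, stood at 191 and 387 counts before culture and 33 and 109 after it, with culture folds of 0.626 and 0.776.

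The receptors thus exchanged places within a library. Per Notch1 count there were 0.102 and 0.0868 Notch4 counts before culture in wild type and mutant, and 0.238 and 0.290 after it. For Notch2 the ratio went the other way, from 0.421 and 0.430 to 0.0686 and 0.0760. Expressed per kb of exon over the 4 receptors, Notch1 made up 61.2% and 62.1% of receptor counts before culture and 70.0% and 65.6% after it. The Notch2 share went from 23.3% and 24.1% to 4.34% and 4.51%, and that of Notch4 from 8.95% and 7.75% to 24.0% and 27.4%. Before culture Notch2 was the receptor next to Notch1, and after culture that place was held by Notch4 in both genotypes.

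Dll4 stood out among the ligands. It encodes the Delta-like ligand of arterial and sprouting endothelium and lies on the plus strand of chromosome 2 (119325784 to 119335962). Counts were 329 and 640 before culture and 369 and 839 after it, or 66.0, 69.5, 268 and 251 CPM. Dll4 rose 4.07-fold (3.49 to 4.73) in wild type and 3.61-fold (3.25 to 4.01) in mutant. Against the pan-endothelial genes it was 1.31-fold (1.13 to 1.52) and 1.36-fold (1.23 to 1.51) higher, which was not called.

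Jag1, the Jagged ligand of endothelium and mural cells (chromosome 2, minus strand, 137081456 to 137116644), held 347 and 686 counts before culture and 128 and 255 after it. Its 4 levels, 69.6, 74.5, 93.1 and 76.3 CPM, lay close together. The culture fold was 1.34 (1.08 to 1.64) in wild type and 1.02 (0.883 to 1.18) in mutant, but 0.868 and 0.751 with total gene counts as the scale and 0.431 and 0.386 against the pan-endothelial genes, so its direction rests on the scaling. The related Jag2 (chromosome 12, minus strand, 112907819 to 112929776) held 137 and 313 counts before culture and 19 and 52 after it, or 27.5, 34.0, 13.8 and 15.5 CPM. Both Jag2 values after culture were below both before it. Its culture folds of 0.503 (0.294 to 0.816) and 0.458 (0.334 to 0.615) did not pass the call on the TMM scale. With total gene counts Jag2 was called lower in mutant (0.336), and with pan-endothelial scaling in both genotypes (0.162 and 0.173).

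Between the ligands, the balance of Dll4 to Jag1 differed with culture. There were 0.948 (0.813 to 1.11) and 0.933 (0.836 to 1.04) Dll4 counts per Jag1 count before culture in wild type and mutant, and 2.88 (2.35 to 3.55) and 3.29 (2.86 to 3.80) after it. The intervals of the 2 culture states were far apart, and those of the 2 genotypes overlapped in each state. Dll1, a Delta-like ligand that is no member, made up 27.8% and 28.3% of ligand counts per kb before culture and 23.0% and 23.8% after it, over Dll1, Dll4, Jag1 and Jag2. The Dll4 share went from 35.9% and 34.6% to 60.6% and 61.0%, and the Jag1 share from 25.3% and 24.7% to 14% and 12.4%.

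**Figure D2:**
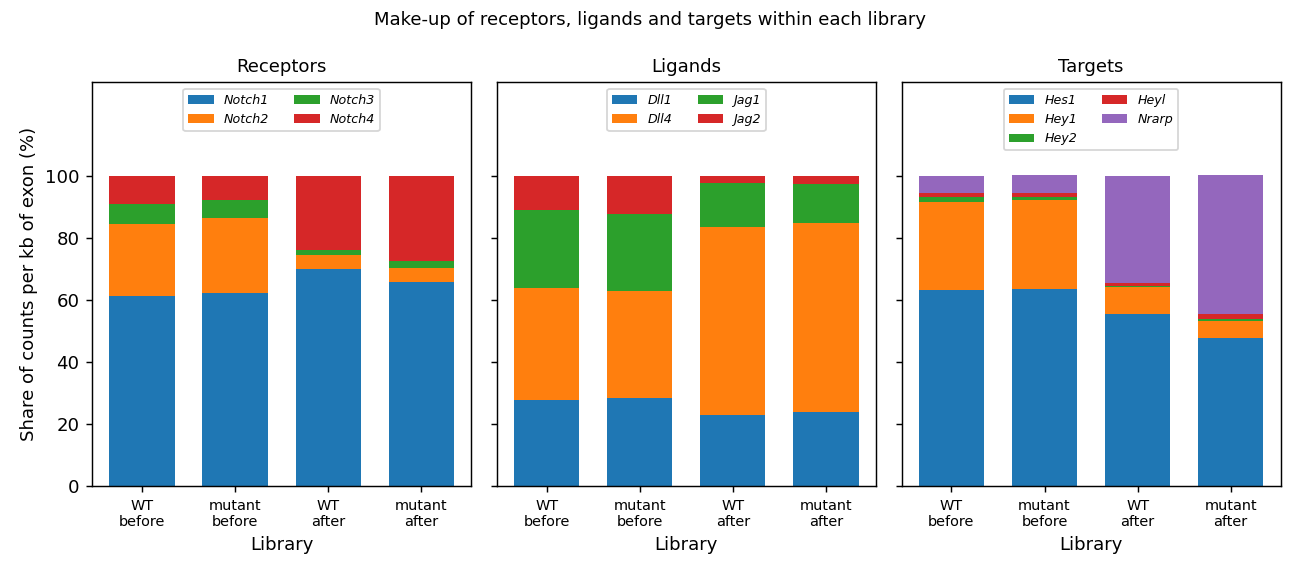
Share of each gene, in percent of the counts per kb of exon, among the receptors, the ligands and the targets in each of the 4 libraries. The shares do not depend on the scaling of the libraries; Notch4 and Dll4 take larger shares after culture than before it in both genotypes, Notch2 and Hey1 take smaller ones, and Nrarp goes from 5.45% and 5.54% to 34.6% and 44.7% of the target counts.

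Of the targets, Nrarp was called higher after culture and Hey1 lower in both genotypes on the TMM scale, and Hey2 and Heyl were not called. Nrarp encodes a small ankyrin-repeat protein that binds the Notch intracellular domain and limits its activity (chromosome 2, plus strand, 25180758 to 25183339). It held 149 and 313 counts before culture and 137 and 369 after it, or 29.9, 34.0, 99.7 and 110 CPM. Nrarp rose 3.33-fold (2.62 to 4.23) in wild type and 3.25-fold (2.79 to 3.79) in mutant, and was at 1.07 (0.845 to 1.36) and 1.22 (1.05 to 1.43) against the pan-endothelial genes. In the annotation, 2051 of its 2582 exon bases are shared with the antisense gene Gm38287, and without strand in the counting, which is not given in the sources used here, the transcripts of the pair cannot be told apart. Shorter stretches are shared by Notch1 with 0610009E02Rik and Gm13568 (1389 bases, opposite strand), by Dll4 with Gm14207 (214 bases, opposite strand) and by Notch2 with Gm42820 (541 bases, same strand).

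Hey1 encodes a basic helix-loop-helix repressor that Notch induces in endothelium (chromosome 3, minus strand, 8663359 to 8667256). It held 725 and 1504 counts before culture and 32 and 43 after it, wild type first. The levels were 145 (135 to 156), 163 (155 to 172), 23.3 (15.9 to 32.9) and 12.9 (9.31 to 17.3) CPM. The states did not overlap. Hey1 fell 6.25-fold (4.39 to 9.21) in wild type and 12.7-fold (9.38 to 17.6) in mutant, the only member that was called lower in both genotypes under every scaling tried, with 0.0515 and 0.0297 against the pan-endothelial genes.

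Hey2, a repressor known from arterial endothelium and heart (chromosome 10, minus strand, 30832359 to 30842801), held 44 and 64 counts before culture and 2 and 6 after it. The background alone would give 16.9 and 21.3 counts before culture and 1.36 and 4.13 after it, which is 38.5%, 33.3%, 68.2% and 68.8% of what was counted. Heyl, a related repressor of mural and endothelial cells (chromosome 4, plus strand, 123233556 to 123249875), held 68 and 139 counts before culture and 5 and 20 after it, with background shares of 44.3%, 27.2%, 48.5% and 36.7%. Both genes were therefore close to background, above all after culture. Their culture folds were 0.165 (0.0193 to 0.632) and 0.258 (0.0914 to 0.594) for Hey2 and 0.267 (0.0839 to 0.653) and 0.396 (0.235 to 0.636) for Heyl, and none was called on the TMM scale. Both were called lower in both genotypes with total gene counts and with pan-endothelial scaling, the latter at 0.0531 and 0.0974 for Hey2 and 0.0858 and 0.149 for Heyl. Neither of these scalings removes the background. With background subtracted neither gene was called in either genotype, at 0.303 and 0.170 for Hey2 and 0.216 and 0.302 for Heyl.

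Hey1 and Nrarp exchanged places within a library. Hey1 outnumbered Nrarp by 4.87 counts (4.07 to 5.84) to 1 in wild type and 4.81 (4.25 to 5.44) to 1 in mutant before culture. After culture there were 0.234 (0.154 to 0.345) and 0.117 (0.0829 to 0.160) Hey1 counts per Nrarp count. Set against the main receptor, Hey1 went from 0.341 and 0.320 counts per Notch1 count to 0.0196 and 0.0126, whereas Nrarp went from 0.0700 and 0.0666 to 0.0839 and 0.108. These ratios hold whatever scaling is used.

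The 250 bases before the RefSeq start (GRCm38.p6) are printed for Hey2, a target near background, and for Nrarp, Dll4 and Notch4. The latter were called higher in both genotypes on the TMM scale. Hey1 has no entry, and Hey2, which was not called on that scale, does not stand in for it. The windows therefore do not compare a target that fell with genes that rose. The sequences of Hey2 (chr10:30842784-30843033, minus strand), Nrarp (chr2:25180508-25180757, plus strand), Dll4 (chr2:119325534-119325783, plus strand) and Notch4 (chr17:34564045-34564294, plus strand) run 5′ to 3′ on the strand of the gene. Capitals mark GTGGGAA, the core motif of RBPJ, or its reverse complement TTCCCAC.
Hey2: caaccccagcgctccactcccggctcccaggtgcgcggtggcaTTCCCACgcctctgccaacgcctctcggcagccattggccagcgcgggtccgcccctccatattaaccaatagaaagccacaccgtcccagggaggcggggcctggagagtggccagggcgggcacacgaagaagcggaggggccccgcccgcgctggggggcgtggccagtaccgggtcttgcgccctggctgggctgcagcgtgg
Nrarp: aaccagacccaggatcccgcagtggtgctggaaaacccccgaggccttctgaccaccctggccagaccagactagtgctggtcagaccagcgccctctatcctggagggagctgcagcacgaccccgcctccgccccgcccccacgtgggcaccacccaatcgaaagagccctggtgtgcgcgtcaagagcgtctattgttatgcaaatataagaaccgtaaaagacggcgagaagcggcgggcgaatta
Dll4: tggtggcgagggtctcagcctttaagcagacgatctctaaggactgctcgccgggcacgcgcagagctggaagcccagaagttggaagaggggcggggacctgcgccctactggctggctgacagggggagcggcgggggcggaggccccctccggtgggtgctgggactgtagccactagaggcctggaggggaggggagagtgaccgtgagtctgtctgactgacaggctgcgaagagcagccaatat
Notch4: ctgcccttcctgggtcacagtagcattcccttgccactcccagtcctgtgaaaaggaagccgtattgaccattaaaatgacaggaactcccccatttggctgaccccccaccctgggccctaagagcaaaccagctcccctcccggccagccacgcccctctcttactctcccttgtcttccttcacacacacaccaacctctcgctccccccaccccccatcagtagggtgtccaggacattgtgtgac
The motif was searched on both strands in the 8 members with an entry, all but Hey1 and Heyl, and occurred in 1 of them, Hey2, with its first base 207 bases upstream of the start. Of 32851 RefSeq windows of equal length, 1779 (5.42%) held it. A match is a run of letters and not a bound site, and these windows cover only 250 bases.

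Levels can be compared between genes only per kb of exon, and on that scale the order of the members differed between the 2 culture states. Before culture Hey1 was highest, at 60.0 and 67.4 CPM per kb in wild type and mutant, followed by Notch1 at 45.0 and 53.8. Dll4 (17.6 and 18.5) and Notch2 (17.1 and 20.9) came next and overlapped, as did Jag1 (12.4 and 13.3) with Nrarp (11.6 and 13.2) and Notch4 (6.58 and 6.72) with Jag2 (5.38 and 6.65). Hey2 (3.46 and 2.72) and Heyl (3.01 and 3.33) were lowest and were not separated from each other, nor was Hey2 from Jag2 in wild type.

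After culture Notch1 led, at 125 and 108 CPM per kb, with Dll4 next at 71.6 and 67.0. Notch4 (42.9 and 45.0) and Nrarp (38.6 and 42.7) followed and overlapped. Jag1 stood at 16.6 and 13.6, and Hey1 (9.61 and 5.31) overlapped with Notch2 (7.76 and 7.40). Jag2 (2.71 and 3.05), Heyl (0.802 and 1.32) and Hey2 (0.571 and 0.704) closed the order, and Hey2 and Heyl were not separated. Jag2 overlapped with Heyl in wild type and with Hey1 in mutant. Hey1 thus went from the top of the order to the middle, and Notch4 from the lower end to the upper.

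**Figure D3:**
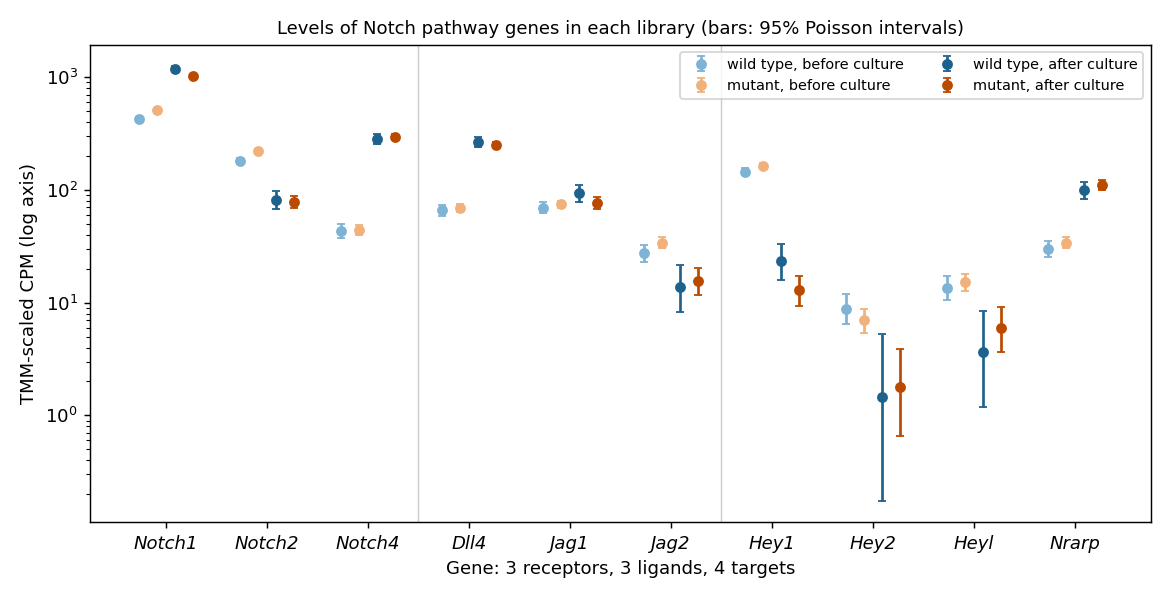
Level of each Notch gene in each of the 4 libraries, in TMM-scaled CPM on a log axis, with bars for the exact Poisson 95% interval. The libraries of the 2 genotypes lie close together for most genes within a culture state, Notch1, Notch4, Dll4 and Nrarp lie higher after culture on this scale, and Hey1 lies lower, from 145 and 163 CPM to 23.3 and 12.9 CPM; scaled to pan-endothelial genes, Notch1 lies lower after culture.

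The deletion was compared with wild type in each culture state. Before culture 0 of 10 members were called, beside 0.0634% of 18934 genes (0.0158% higher and 0.0475% lower), and after culture 0 of the 9 members that reached the count minimum were called, beside 0.317% of 12309 genes (0.244% higher and 0.0731% lower). Hey2, with 2 and 6 counts, did not reach it. Before culture the median log2 fold, mutant over wild type, was 0.15 over the members and 0.04 over all genes, and after culture it was -0.07 and 0.00. Differences of smaller size than 2-fold exceeded counting error for some members. Before culture the intervals of Notch1, Notch2, Jag2 and Hey1 lay above 1 and none lay below, where 17.6% of all genes lay above and 8.54% below. After culture those of Notch1 and Hey1 lay below 1 and none above, where 12.3% of all genes lay below and 9.48% above. With deep libraries such intervals are narrow, and the variation between litters, which they do not cover, was not measured.

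Notch1 was 1.20-fold (1.14 to 1.26) higher in mutant before culture and at 0.862 (0.812 to 0.915) of wild type after culture. With background subtracted the values were 1.08 (1.03 to 1.14) and 0.896 (0.844 to 0.951). Hey1 was 1.12-fold (1.03 to 1.23) higher in mutant before culture and at 0.552 (0.341 to 0.902) of wild type after it, the latter from 32 and 43 counts. With background subtracted, Hey1 before culture was at 1.01 (0.924 to 1.11), an interval that holds 1, and after culture at 0.545 (0.334 to 0.888).

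Notch2 and Jag2 were 1.22-fold (1.13 to 1.32) and 1.24-fold (1.01 to 1.52) higher in mutant before culture, and after culture their folds were 0.954 (0.762 to 1.20) and 1.12 (0.654 to 2.01). The folds before culture were 1.13 (1.04 to 1.23) and 1.27 (0.98 to 1.64) with background subtracted, where the interval of Jag2 holds 1. Dll4 and Notch4, the ligand and the receptor with the largest culture folds on the TMM scale, had genotype intervals that held 1 in both states. Dll4 was at 1.05 (0.920 to 1.21) before culture and 0.935 (0.826 to 1.06) after it, and Notch4 at 1.02 (0.864 to 1.21) and 1.05 (0.930 to 1.18). The highest bound of these 4 intervals was 1.21 and the lowest 0.826, and the side of 1 on which some of these values lay changed with the scaling. Nrarp was at 1.14 (0.932 to 1.39) and 1.11 (0.908 to 1.36), and Jag1 at 1.07 (0.938 to 1.22) and 0.819 (0.660 to 1.02). For Heyl the folds were 1.11 (0.821 to 1.5) and 1.64 (0.599 to 5.61), and for Hey2 before culture 0.787 (0.528 to 1.18), too wide to place either.

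**Figure D4:**
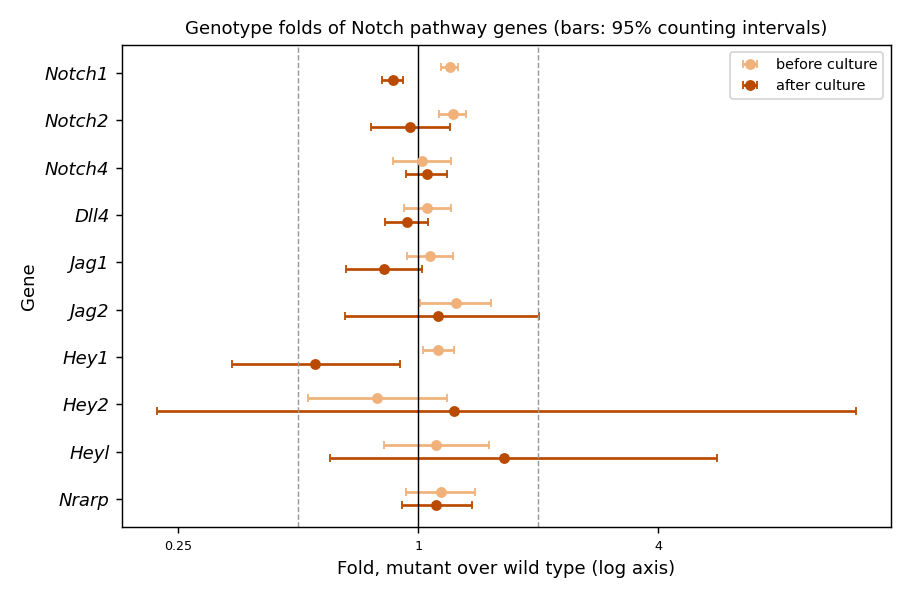
Fold of each Notch gene, mutant over wild type, on a log axis, before culture (light) and after culture (dark), with 95% counting intervals and dashed lines at 2-fold. No interval lies wholly beyond 2-fold; those of Notch1 and Hey1 lie above 1 before culture (1.20 and 1.12) and below 1 after it (0.862 and 0.552).

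The culture folds of the genotypes were also set against each other, as the mutant culture fold over that of wild type. The ratio was 0.721 (0.667 to 0.780) for Notch1, 0.781 (0.617 to 0.988) for Notch2, 0.766 (0.597 to 0.982) for Jag1 and 0.492 (0.309 to 0.785) for Hey1, so these 4 had a lower culture fold in mutant than in wild type by more than counting error. For Notch1 and Hey1 this held under all 4 alternative scalings. For Notch2 and Jag1 it held with DESeq2 size factors and was lost with total gene counts (0.883 and 0.865), with pan-endothelial scaling (0.915 and 0.897) and with background subtracted (0.863 and 0.844). Such intervals excluded 1 for 32.7% of the 9106 genes with at least 20 counts in every library and for 4 of the 7 members that met the same minimum. The ratio held 1 for Notch4 (1.03, 0.837 to 1.25), Dll4 (0.888, 0.741 to 1.06) and Nrarp (0.974, 0.739 to 1.28). It also held 1 for Jag2, Hey2 and Heyl, whose low counts gave wide intervals.

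Other genes of the pathway were described through lists of receptors and ligands, HES-type targets, nuclear partners, cleavage enzymes, sugar-modifying enzymes, and ubiquitin ligases with endocytic adaptors. Between the genotypes, 0 genes of every list were called, beside 0.0634% of all genes before culture and 0.317% after it. Per kb, Hes1 had the highest value of the targets Hes1, Hey1, Hey2, Heyl and Nrarp in each of the 4 libraries. In mutant after culture it was not separated from Nrarp, at 45.6 (39.8 to 52.0) and 42.7 (38.5 to 47.3) CPM per kb. Hes1 held 982 and 2043 counts before culture and 125 and 224 after it. Hes1 fell 3.31-fold (2.88 to 3.81) in mutant and was 2.17-fold (1.80 to 2.63) lower in wild type, which was not called. Relative to Notch1, the Hes1 counts went from 0.461 and 0.434 to 0.0766 and 0.0655, in the direction of Hey1. Bhlhe40, a related repressor that also responds to low oxygen, was called lower in both genotypes, at 0.169 and 0.122. In all, 0 of the HES-type genes tested were called higher. In wild type 1 of 4 and in mutant 3 of 8 were called lower, beside 5.77% and 3.62% of all genes. Hes2 and Hes6 in wild type and Hes2, Hes3, Hes5 and Helt in mutant reached the count minimum only through the library before culture. With background subtracted the call of Hes5 in mutant was lost, and Hes1 was called lower in wild type too.

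Dlk1, a Delta-like protein that lacks the receptor-binding domain of the canonical ligands, was called lower with culture, at 0.155 and 0.122, from 771 and 2721 counts to 33 and 120. It was 1.91-fold (1.76 to 2.07) higher in mutant before culture. In the same 2 libraries the 8 stromal genes summed to 3250 and 5199 CPM and 4 cartilage genes to 533 and 831 CPM, wild type first. The part of such cells in the Dlk1 difference was not tested. Dll1 was at 2.0 (1.61 to 2.48) and 1.72 with culture, neither called, and at 0.644 and 0.649 against the pan-endothelial genes, so its direction turned with the scaling.

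Fringe enzymes add sugars to Notch receptors and shift their preference between Delta-like and Jagged ligands, and of the 3 that were measured Lfng and Mfng were called higher after culture. Lfng went from 67 and 108 counts to 146 and 281, and rose 7.90-fold (5.88 to 10.7) in wild type and 7.17-fold (5.72 to 9.03) in mutant. Mfng went from 73 and 103 counts to 74 and 184, and rose 3.67-fold (2.62 to 5.15) and 4.92-fold (3.85 to 6.33). Against the pan-endothelial genes Lfng was still 2.54-fold and 2.70-fold higher, and Mfng 1.18-fold and 1.86-fold, where Lfng in mutant alone was still called. Rfng, the other Fringe gene, stood at 9.23 and 9.88 CPM before culture and 12.4 and 12.3 CPM after it and was not called. Lfng and Mfng were the 2 called genes among the 6 of their list in both genotypes on the TMM scale, with 0 called lower. Over all genes 8.17% were called higher in wild type and 5.19% in mutant on that scale.

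Dtx1, which encodes a Deltex ubiquitin ligase and is itself known as a Notch target in lymphocytes, nearly vanished from the counts. It held 508 and 932 counts before culture and 1 and 8 after it, with a background of 2.16 and 6.53 counts after culture. The culture folds were 0.00714 (0.00018 to 0.0399) in wild type and 0.0236 (0.0102 to 0.0468) in mutant. Dtx4 was also called lower, at 0.188 and 0.285, from 116 and 271 counts to 6 and 28. Background made up 29.9% and 16.1% of Dtx4 counts before culture and 46.6% and 30.2% after it. Dtx1 in both genotypes and Dtx4 in wild type reached the count minimum only through the library before culture, where they were higher. With background subtracted both were still called lower. Dtx3l, a ligase known from the interferon response and DNA repair, was called higher, at 4.85 and 5.19. The endocytic adaptor Epn2 was called higher in both genotypes as well, at 3.55 and 2.84. Against the pan-endothelial genes Dtx3l was at 1.56 and 1.96 and Epn2 at 1.14 and 1.07, neither called, and the calls for Dtx1 and Dtx4 held. Of the 15 ligase and adaptor genes, 3 were called higher and 2 lower in each genotype on the TMM scale. Over all genes the shares were 8.17% higher and 5.77% lower in wild type, and 5.19% and 3.62% in mutant. With pan-endothelial scaling 0 of the 15 were called higher, and 6 lower in wild type and 5 lower in mutant. The shares of all genes called lower on that scale were 51.1% and 47.9%.

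Of the core machinery, 3 of 13 nuclear partners in wild type, among them Maml1 and Ep300, were called higher on the TMM scale. In mutant 2 of 13 (Maml2 and Kat2b) were, and 0 were called lower in either genotype. With background subtracted all the wild type calls were lost, and in mutant Kat2b stayed, Maml2 was lost and Maml3 was called. Over all genes 8.17% were called higher and 5.77% lower in wild type, and 5.19% and 3.62% in mutant. Scaled to the pan-endothelial genes, 0.787% and 0.851% of all genes were called higher. Rbpj, the DNA-binding partner of the pathway, held 277 and 567 counts before culture and 76 and 216 after it, with folds of 0.995 (0.761 to 1.29) and 1.05 (0.893 to 1.23). Among 10 cleavage genes, Furin, the protease that matures the receptor, and Ncstn, a subunit of gamma-secretase, were called higher in both genotypes, at 3.83 and 2.5 and at 3.84 and 2.41, and Aph1a in wild type. With background subtracted Ncstn was no longer called in mutant, and the other cleavage calls held. Scaled to the pan-endothelial genes, 0 nuclear partner or cleavage genes were called higher, the folds of 13 of 13 nuclear partners in wild type and 12 of 13 in mutant lay below 1, and Furin and Ncstn stood at 1.23 and 1.24 in wild type and at 0.942 and 0.909 in mutant, where the direction turned.

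**Figure D5:**
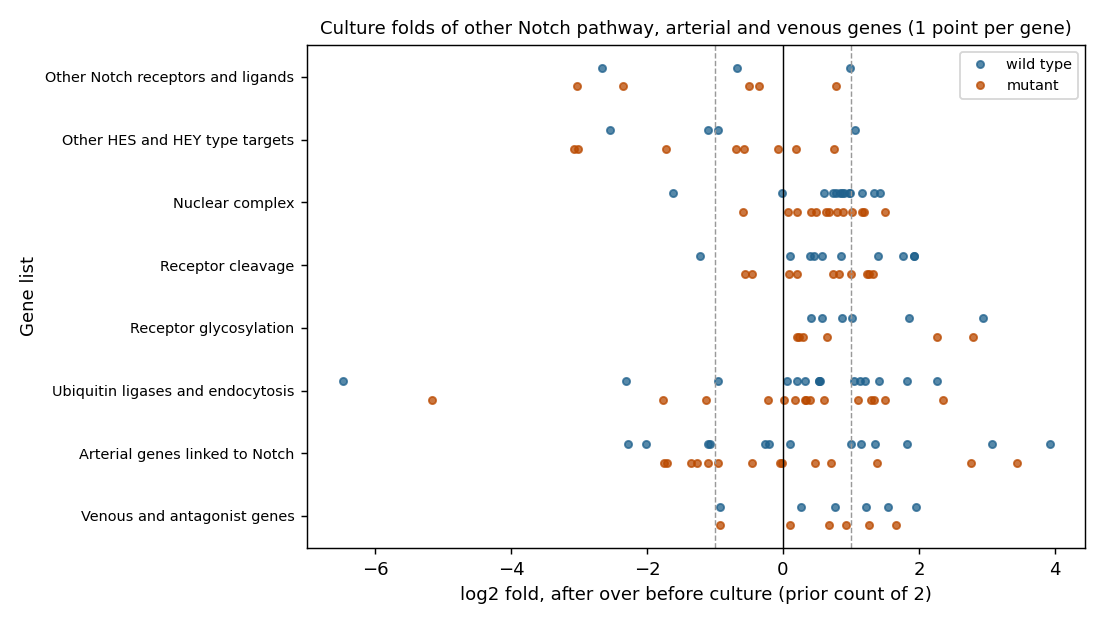
Culture folds on the TMM scale of the genes in each Notch pathway list and in the arterial and venous lists, wild type and mutant, on a log2 axis, with points for single genes. Epas1, Nrp1 and the Fringe gene Lfng lie at the high end, Dtx1 at the low end, and most nuclear and cleavage genes lie moderately above 0 on this scale, below 0 once scaled to pan-endothelial genes.

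A list of arterial genes linked to Notch, which holds targets as well as genes that act beside or upstream of it, did not share 1 direction. Of the 13 measured in wild type, 3 were called higher with culture (Sox18, Nrp1 and Epas1) and 1 lower (Gja4), and of 14 in mutant, 3 were called higher (the same ones) and 2 lower (Gja4 and Gja1). With pan-endothelial scaling 2 were called higher and 7 lower in wild type, and 2 higher and 9 lower in mutant. Over all genes 8.17% were called higher and 5.77% lower in wild type on the TMM scale, and 5.19% and 3.62% in mutant. Scaled to the pan-endothelial genes those shares were 0.787% and 51.1%, and 0.851% and 47.9%. Epas1, the oxygen-regulated factor HIF2A, rose 15.3-fold (13.9 to 16.8) and 10.9-fold (10.2 to 11.7), and Nrp1, a co-receptor for VEGF and semaphorins, 8.48-fold and 6.82-fold. Gja4, an arterial and lymphatic valve connexin, went from 139 and 289 counts to 9 and 31, at 0.235 (0.105 to 0.459) and 0.296 (0.197 to 0.429). In wild type Gja4 reached the count minimum only through the library before culture. Efnb2, the arterial ephrin, stood at 0.834 and 0.734 and was not called, although it was called lower with pan-endothelial scaling. Of 6 venous and antagonist genes, Nr2f2, a factor known to oppose Notch in veins, and Ephb4, the venous Eph receptor, were called higher, at 3.89 and 3.16 and at 2.94 and 2.40, and so was Flt4 in wild type. Nrp2, a co-receptor of veins and lymphatics, was lower and not called, from 1710 and 1735 CPM to 904 and 911 CPM. Against the pan-endothelial genes Nrp1 and Epas1 were still called higher, whereas Sox18 (1.14 and 0.985) and Nr2f2 (1.25 and 1.19) were near 1 and Ephb4 (0.946 and 0.903) and Flt4 (0.750 and 0.718) turned. Nrp2 and Aplnr were called lower on that scale.

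Markers of other cell types moved with culture as well. Smooth muscle and pericyte genes, 10 in all, summed to 232 and 259 CPM before culture and 364 and 376 CPM after it, with none at 0. Most of the difference lay in Acta2, at 15.1, 20.7, 119 and 115 CPM. Rgs5 (5.02, 4.56, 33.5 and 43.4 CPM), Tagln (9.63, 10.2, 21.8 and 24.8 CPM) and Abcc9 (63.6, 59.7, 96.0 and 85.5 CPM) were also higher after culture. Cspg4 (31.3, 39.2, 5.09 and 14.1 CPM), Myh11 (42.1, 43.0, 24.0 and 26.3 CPM), Des and Kcnj8 were lower, and Cnn1 and Pdgfrb differed little. Adipocyte genes, 5 in all, went from 57.8 and 48.6 to 501 and 370 CPM, of which Fabp4, a gene of capillary endothelium too, made up 394 and 335 CPM after culture. Adipoq (5.42, 5.32, 54.6 and 12.9 CPM) and Plin1 (3.81, 3.36, 39.3 and 15 CPM) were also higher after culture. Cfd went from 2.81 to 11.6 CPM in wild type and from 2.17 to 2.09 CPM in mutant. Lep was lower after culture in both genotypes. Leukocyte genes, 7 in all, went from 48.2 and 49.6 to 15.3 and 23.0 CPM, with Cd52 and Coro1a at 0 in wild type after culture. Arterial endothelial genes, 7 in all, summed to 491 and 560 CPM before culture and 414 and 325 CPM after it, with Cxcr4 at 0 in wild type after culture. The part of these cells in the Notch values was not tested. The labelled cell type was checked on 8 lymphatic genes, which summed to 7590 and 7177 CPM before culture and 7517 and 6324 CPM after it. Ccl21a was at 0 in all 4 libraries. Pdpn went from 435 and 915 counts before culture to 0 and 8 after it, low in both genotypes. Its 0 in wild type, like those of Cd52, Coro1a and Cxcr4, came from the library with the fewest gene counts (1694669). The level sum held opposite differences. Lyve1, a marker of the sort, went from 1072 and 890 CPM to 3523 and 2742 CPM, while Reln went from 1091 and 1012 CPM to 20.4 and 21.5 CPM, Mmrn1 from 2030 and 1761 CPM to 320 and 237 CPM, and Prox1 was lower as given above.

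The genes whose levels over the 4 libraries were most like those of a member were ranked by the Euclidean distance between log2 levels centred on each gene's mean, among genes with at least 50 counts in every library. For Notch1 the nearest of 6014 genes were Sik3 (distance 0.0155), Dapk3 (0.0246) and Clcn7 (0.0355). For Dll4 they were Fndc3b (0.0273), Smap2 (0.0503) and Snrk (0.0543). Hey1, itself under 50 counts after culture, had less close neighbours, Cav1 (0.349), Col3a1 (0.366) and Mmrn1 (0.518).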

How the data were processed

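RNA was sequenced in 4 libraries, 1 per genotype and culture state, as pairs of 75 nt from a stranded total RNA kit, per the labels' protocols. For 23337 gene symbols the authors deposited raw counts of read pairs. Processing used bcl2fastq, STAR, HTSeq 0.11.2 and build mm10, per the submitters' processing notes. Per the deposited tables' names, duplicates were removed with sambamba. Which annotation and strand setting HTSeq used is not given in the sources used here. The 5 HTSeq summary rows were kept out; 89.3% and 85.8% (before culture, wild type and mutant) and 66.7% and 74.2% (after) of uniquely aligned pairs lay in no gene.

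Counts were scaled with TMM (edgeR 4.0.16, R 4.3.3) over all genes. Levels have exact Poisson and folds Clopper-Pearson 95% intervals, and a ratio of folds has a log-normal one. A gene was called where the whole interval lay beyond 2-fold, with at least 20 counts in 1 of the 2 libraries. Medians of log2 folds used a prior count of 2. No p-value was computed, since each group has 1 library. Since reads had no molecular identifiers and are not independent molecules, intervals cover counting error only. Background was the rate per kb in 1408 olfactory and vomeronasal receptor genes, times exon length. Exon lengths, positions and overlaps came from GENCODE vM21 on GRCm38, the assembly of mm10, with a length found for 97.9% of symbols. Alternatives were DESeq2 1.42.0 size factors, total gene counts, pan-endothelial scaling, background subtraction, other minimums and a 1.5-fold threshold. The procedure was tested on simulated data. All members were named, and from each other list up to 4 called genes with the most counts per comparison, or 2 where none was called; a gene under this rule is not reported here. Members and lists were chosen with earlier results of these data known.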

Additional observations from a re-analysis of the deposited data

Results flagged for a closer look

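On the TMM scale the genotype difference of 2 members pointed in opposite directions in the 2 culture states, with both intervals clear of 1. The share of all genes that did so was not counted. The ratio of culture folds excluded 1 for 32.7% of the 9106 genes with at least 20 counts in every library. Notch1 was at 1.20 (1.14 to 1.26), mutant over wild type, before culture and at 0.862 (0.812 to 0.915) after it. Hey1 was at 1.12 (1.03 to 1.23) before culture and at 0.552 (0.341 to 0.902) after it. The difference between the states is the ratio of culture folds given above, 0.721 (0.667 to 0.780) for Notch1 and 0.492 (0.309 to 0.785) for Hey1. With 1 library per group that ratio could be set against counting error only. Scaled to the pan-endothelial genes, Notch1 was at 1.12 before culture and 0.945 (0.890 to 1) after it, and Hey1 at 1.05 (0.960 to 1.15) and 0.605 (0.374 to 0.988). With background subtracted Hey1 was at 1.01 (0.924 to 1.11) before culture. Under both settings the Hey1 interval before culture held 1, so the switch of Hey1 was lost there.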

How the results depend on the processing

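The number of members called higher with culture in wild type was 4, and 2 with total gene counts as the scale and 0 with pan-endothelial scaling; in mutant it was 3, and 1 with pan-endothelial scaling. The number called lower in wild type was 1, and 2 with background subtracted, 4 with total gene counts, 5 with pan-endothelial scaling and 4 at a 1.5-fold threshold; in mutant it was 2, and 5, 6 and 5 with total gene counts, pan-endothelial scaling and the 1.5-fold threshold. For total gene counts, background subtraction and the 1.5-fold threshold, no share over all genes stands beside these counts, so they are not read as results about the members. Total gene counts shifted all culture log2 folds by -0.62 in wild type and -0.45 in mutant. The ratio of culture folds excluded 1 for 4 members, and for 2 each with background subtracted, total gene counts and pan-endothelial scaling. For these alternatives no share over all genes stands beside the ratio counts. The Notch1 culture fold in wild type reversed to 0.895 with pan-endothelial scaling, which by construction lowers all culture folds alike. The number of members called between genotypes was 0 under all alternatives run. Of 159 values of single members, 119 stayed within their counting interval, 39 left it and 1, a called value, reversed. Of the folds, called or not, 18 lay on the other side of 1, among them the culture folds of Notch1 in mutant and of Jag1 in both genotypes with pan-endothelial scaling; with DESeq2 size factors all 40 stayed. No paired analysis was made, and the labels give no replicate numbers. The 2 culture states of a genotype come from 1 sort, and a fit with genotype as the block and culture as the effect, with 1 degree of freedom left, was not made. With 1 library per group none was left out. Depth limits Hey2, Heyl and Jag2 after culture, where 2 to 52 counts were present.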
